A study of Mus musculus with 14 samples.

Results

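RNA of microglia sorted from the mouse retina at postnatal day 7 (P7) was set against RNA of the whole retina of the same age. The comparison takes 4 of the 14 libraries of the series, chosen by their labels: the 3 P7 microglia libraries and the 1 P7 whole retina library. Microglia came from C57BL/6 mice of genotype Cx3cr1-GFP, a line in which a green fluorescent reporter sits at the locus of the fractalkine receptor; the sources used here do not say whether 1 or both alleles carried it. Cells were sorted as GFP-positive, CD45-positive and CCR2-negative, and each library was a pool of 5 to 12 retinas, which the labels call biological replicates. The whole retina library came from C57BL/6 mice of genotype WT. Its RNA was extracted with the RNeasy Plus Mini kit and that of the sorted cells with the Micro kit. The sorted cells were turned into cDNA with the NuGEN Ovation RNA-seq System v2, which amplifies scarce RNA; for retina, the sources used here do not name the library kit. The 2 sides thus differ at once in tissue, sorting, genotype and RNA kit, which cannot be told apart, and whether cDNA synthesis differed too is not known here. The retina side has no replicate, so every ratio is given as a value with no test on it.

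Microglia are the resident macrophages of the nervous system. They express the receptor CSF1R and digest what they take up in lysosomes. They recognise damaged or superfluous cells and synapses through complement, lectin and phosphatidylserine receptors. In the first postnatal week the rodent retina still adds late-born rods, bipolar cells and Müller glia, removes surplus neurons, forms synapses and grows its vessels. Whole retina contains microglia too, as a small minority among photoreceptors and other neurons. In bulk RNA such as this, fewer cells of a type and less RNA per cell cannot be told apart.

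The microglia libraries held 13780549, 11321091 and 17446905 counts and the retina library 24361772. Levels are given as CPM (counts scaled to library depth) adjusted by the trimmed mean of M-values (TMM) over the 14 libraries, and as FPKM, fragments per kilobase of transcript scaled to depth, where genes are compared with each other. Of 20902 genes in the table, 13556 reached 5 CPM on at least 1 side. Among those genes, pairs of P7 microglia libraries differed by a median of 0.657, 0.563 and 0.707 on the log2 scale. Over the 11516 genes with a mean of at least 5 CPM in them, the 3 whole retina libraries of e16.5 differed from each other by 0.080 to 0.122. That was the only measure of how far retina libraries of 1 age lay apart. The gene sets are unlike, since the 13556 genes include some near 0 in microglia, where a few counts make a 4-fold gap. Between 9.78% and 13.9% of genes lay at least 4-fold apart in a pair of microglia libraries. In a pair of e16.5 retina libraries, over their own gene set, the share was 0.191% to 0.243%. A gene was therefore called higher or lower only when all 3 microglia libraries stood at least 4-fold above or below the retina library, with 0.1 CPM added to each value. The log2 ratios below carry the same 0.1 CPM. Folds are ratios of the microglia mean to the retina value without it, and intervals in brackets are 95% Poisson intervals of the retina count, which cover counting error on that side only.

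The regulatory sequence next to both kinds of gene is shown first. PU.1, encoded by Spi1, is the master transcription factor of macrophages, and CRX is the homeobox factor of photoreceptors. Promoters of 300 bases, 250 before to 50 after each start site, were taken from RefSeq on build GRCm38.p6. They were searched on both strands for GAGGAAGT, a core of PU.1 sites whose reverse complement is ACTTCCTC, and for TAATCC, a core of CRX sites whose reverse complement is GGATTA. The first 3 sequences are those of the named microglia genes with the highest microglia FPKM whose promoter holds the PU.1 letters. Ctss lies at chr3:95526536-95526835 on the plus strand, C1qc at chr4:136892865-136893164 on the minus strand and Apbb1ip at chr2:22774077-22774376 on the plus strand. Capitals mark the match.
Ctss: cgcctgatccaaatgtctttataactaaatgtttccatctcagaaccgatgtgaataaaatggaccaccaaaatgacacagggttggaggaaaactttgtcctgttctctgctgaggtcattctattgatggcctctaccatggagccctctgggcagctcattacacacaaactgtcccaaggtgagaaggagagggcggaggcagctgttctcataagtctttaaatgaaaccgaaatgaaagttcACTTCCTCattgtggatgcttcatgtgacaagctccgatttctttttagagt
C1qc: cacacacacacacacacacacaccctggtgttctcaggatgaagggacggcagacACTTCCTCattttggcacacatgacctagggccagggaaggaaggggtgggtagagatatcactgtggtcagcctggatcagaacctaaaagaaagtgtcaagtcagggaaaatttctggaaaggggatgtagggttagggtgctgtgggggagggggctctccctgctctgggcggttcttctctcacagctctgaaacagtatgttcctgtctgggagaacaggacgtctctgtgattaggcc
Apbb1ip: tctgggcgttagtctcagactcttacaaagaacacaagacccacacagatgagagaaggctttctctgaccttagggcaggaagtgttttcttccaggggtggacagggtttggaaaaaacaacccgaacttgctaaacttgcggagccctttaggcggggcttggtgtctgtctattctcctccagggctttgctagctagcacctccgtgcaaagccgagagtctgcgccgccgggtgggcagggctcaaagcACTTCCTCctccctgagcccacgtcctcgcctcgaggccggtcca
The match began 2 bases before the start of Ctss and 195 bases before that of C1qc, and lay just after the start of Apbb1ip. The other 3 are those of the rod genes with the highest retina FPKM whose promoter holds the CRX letters. Sag lies at chr1:87803430-87803729 on the plus strand, Cnga1 at chr5:72642703-72643002 on the minus strand and Gngt1 at chr6:3993758-3994057 on the plus strand.
Sag: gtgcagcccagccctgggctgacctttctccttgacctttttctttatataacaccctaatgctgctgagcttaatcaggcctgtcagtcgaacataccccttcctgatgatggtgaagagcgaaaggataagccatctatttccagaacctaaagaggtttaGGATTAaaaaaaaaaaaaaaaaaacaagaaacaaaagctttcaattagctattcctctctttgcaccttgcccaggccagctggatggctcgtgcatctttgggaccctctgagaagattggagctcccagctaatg
Cnga1: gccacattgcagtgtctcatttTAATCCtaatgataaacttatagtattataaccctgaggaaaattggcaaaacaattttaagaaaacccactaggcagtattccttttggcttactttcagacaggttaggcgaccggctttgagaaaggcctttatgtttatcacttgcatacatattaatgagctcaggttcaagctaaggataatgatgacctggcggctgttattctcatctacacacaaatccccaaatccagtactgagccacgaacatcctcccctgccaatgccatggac
Gngt1: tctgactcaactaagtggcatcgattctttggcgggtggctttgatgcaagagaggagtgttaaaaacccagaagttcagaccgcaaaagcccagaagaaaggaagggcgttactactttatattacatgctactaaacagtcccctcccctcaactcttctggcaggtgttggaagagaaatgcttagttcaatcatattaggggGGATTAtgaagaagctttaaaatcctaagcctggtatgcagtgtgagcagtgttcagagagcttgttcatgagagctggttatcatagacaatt
These matches began 87, 228 and 44 bases before the start sites. The PU.1 letters stood in 1052 of all 32851 promoters, or 3.20%, and in 2.95% of those of genes at 5 CPM. They stood in 111 of the 1468 promoters of genes higher in microglia (7.56%; 1150 of 1637 genes matched), in 41 of 2324 promoters of lower genes (1.76%; 1713 of 2468 genes matched) and in 2.75% of promoters of genes within 2-fold. The microglia identity genes below had no match in 17 promoters, and the ITAM and Fc receptor genes had 4 in 22, those of Cd300lf, Fcgr4, Inpp5d and Pirb. The CRX letters stood in 7.06% of all promoters and in 5.84% of those of genes at 5 CPM. They stood in 7.02% of promoters of higher genes and in 6.84% of those of lower genes. In the rod list they stood in 5 of 11 promoters (Cnga1, Cngb1, Gngt1, Sag and Samd7) and in the phototransduction list in 8 of 14. Base composition differed between these sets as well, with a median promoter GC content of 56.7% for higher and 61.3% for lower genes. It was 60.7% for genes at 5 CPM and 52.7% for all 32851 promoters. A match describes the letters in this window and nothing more.

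Of the 13556 genes, 1637 (12.1%) were higher in microglia, 2468 (18.2%) were lower and 2383 (17.6%) lay within 2-fold in every library. Counts of called list members below are to be read beside these shares. The bases differ, since list counts are over all members in the table, and members under 5 CPM on both sides cannot be called. Of the chemokine and cytokine genes, 20 of 28 reached 5 CPM, and of the amacrine and horizontal cell genes 14 of 17. In every library, 648 of the higher genes stood at least 16-fold, 265 at least 64-fold and 57 at least 256-fold above retina. On the other side 685 stood at least 16-fold, 182 at least 64-fold and 25 at least 256-fold below. The genes higher in microglia took 40.6%, 36.7% and 41.4% of the counts of the microglia libraries and 2.89% of those of the retina library. The lower genes took 1.62%, 1.89% and 1.32% of microglia counts and 25.3% of retina counts. The median log2 ratio of the 13556 genes was -0.60 and that of all genes in the table -0.33. With CPM by total counts the former moved by -0.32, and every ratio below is to be read against that shift. At P7 the authors' deposited table gives an adjusted p under 0.05 to 5571 of 17703 genes with an adjusted p (31.5%), in either direction. Of the 1637 genes called higher here, 1636 had the same sign and 1579 an adjusted p under 0.05 in the authors' deposited table. For the 2468 called lower these numbers were 2459 and 1501 in the authors' deposited table, with no adjusted p for 126. The deposited values rest on the same libraries, with 1 retina library at P7, so the shared signs are no independent support.

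**Figure D1:**
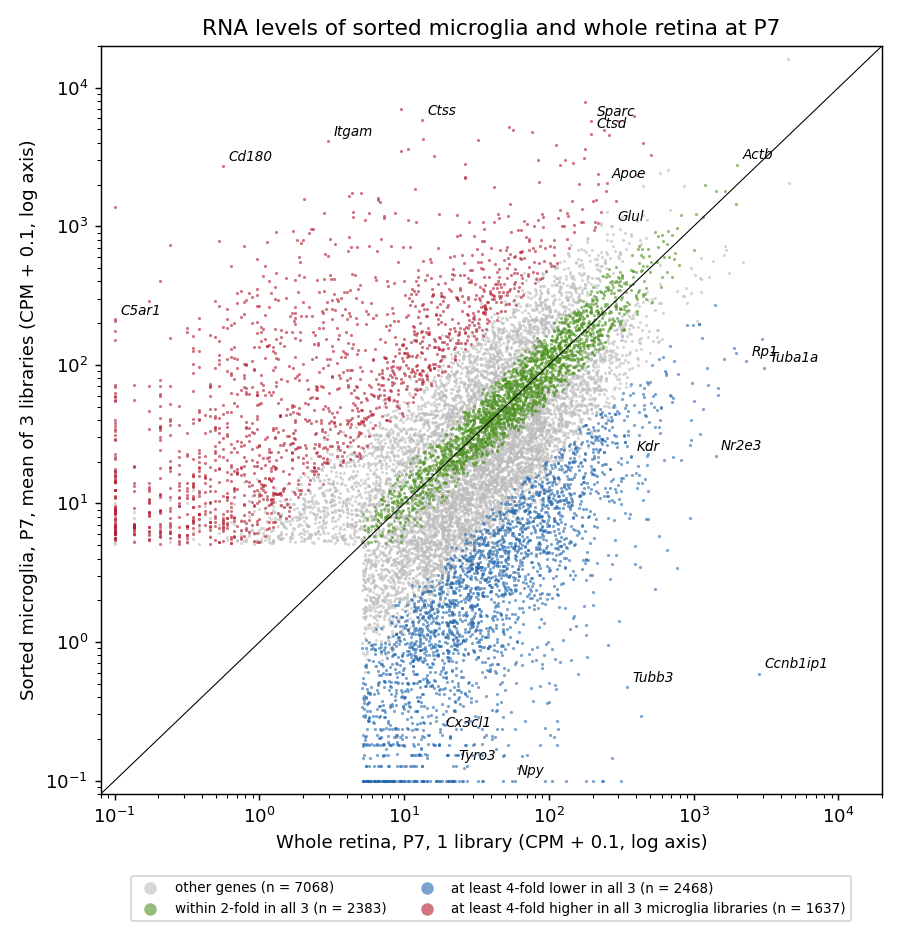
Each point is 1 of the 13556 genes with at least 5 CPM on either side at P7, with the CPM of the single whole retina library on the x axis and the mean CPM of 3 microglia libraries on the y axis, both with 0.1 CPM added and on log axes. The 1637 higher genes (red) lie above and the 2468 lower genes (blue) below the line of equal level, and the 2383 genes within 2-fold (green) along it.

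All 20 genes of the microglia identity list were higher in microglia, with a median log2 ratio of 7.69 (range 4.78 to 10.39). Csf1r, the receptor for CSF1 and IL-34, stood at 5807, 2730.4 and 4272 CPM in the 3 microglia libraries. In retina it stood at 13.4 CPM, a 319-fold difference (288 to 354). Itgam, which encodes the complement receptor subunit CD11b (chr7:128062683-128128160), stood at 3829, 3057 and 5445 CPM against 2.88 CPM, 1426-fold (1147 to 1796). Cx3cr1, whose locus carries the reporter, stood at 1190.4, 1226 and 2049 CPM against 6.69 CPM. Every microglia library lay far above retina in each of these genes, and replicate 2 was the lowest for Csf1r and Itgam. P2ry12, the ADP receptor of ramified microglia (chr3:59216272-59262871), stood at 2233, 1182 and 1793 CPM against 4.91 CPM. Tmem119, a microglia membrane protein, stood at 187, 107 and 115 CPM against 1.03 CPM, and Sall1, the transcriptional regulator of microglia identity, at 720.3, 405 and 671 CPM against 1.78 CPM. The leukocyte gene Ptprc, which encodes the CD45 used in the sort, stood at 1000.0, 774 and 995 CPM against 1.6 CPM. The summed level of the 20 genes was 33816, 19755 and 35206 CPM in microglia and 294 CPM in retina. Read the other way, the retina library held these transcripts at a median of 0.44% of the microglia level, from 0.07% for Itgam to 3.44% for Sparc. Sparc encodes a secreted matrix protein that cells other than microglia make too.

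Per length, the 10 named genes with the highest microglia FPKM among those called higher included B2m, Ctss, Pabpc1, Ctsl, Wasf2, Sparc, Ctsb, Laptm5 and Ctsd. Of these, 4 encode cathepsins, the proteases of the lysosome. Ctss, the cathepsin of macrophages and antigen-presenting cells (gene at chr3:95526786-95556403; its promoter is printed above), stood at 6448, 3753 and 7197 CPM against 13.3 CPM in retina, a 437-fold difference (395 to 485). Ctsb (chr14:63122462-63145923) stood at 9154, 4897 and 9577 CPM against 178 CPM, 44.3-fold (43.1 to 45.5). The order of the libraries was the same in both genes, with replicate 2 lowest. B2m, the light chain of class I histocompatibility molecules, stood at 4046, 2278 and 4455 CPM against 10.5 CPM.

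The named genes with the largest ratios in their lowest library were nearly absent from retina. Cd180, a Toll-like receptor homologue that pairs with Ly86 (chr13:102693558-102739629), stood at 3080.0, 1776 and 3311 CPM against 0.463 CPM, or 13 counts, a 5886-fold difference (3442 to 11054). Apbb1ip, an adaptor that links Rap1 to integrins, stood at 943, 475 and 782 CPM against 4 retina counts, 5151-fold (2012 to 18905). The chemokine Ccl3 (chr11:83647844-83649355) stood at 598, 212 and 403 CPM against 3 counts, 3788-fold (1296 to 18370.3). These genes were picked for their ratios, so the gap between microglia and retina follows from the choice. C5ar1, the receptor for complement fragment C5a, stood at 253, 133 and 237 CPM with no count in retina; against the limit of 3 counts in the retina library (0.107 CPM) it was at least 1945-fold higher. Rgs1, a brake on G-protein signalling, was at least 1407-fold higher on the same reckoning, with 234, 119.6 and 97.1 CPM. Ikzf1, the lymphoid and myeloid zinc finger factor Ikaros, stood at 781, 693 and 891 CPM against 0.427 CPM. The processed pseudogene Rab7-ps1 also met the rule, with 179, 174 and 288 CPM and no retina count, but shares reads with its parent gene and is uncertain.

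The transcription factors of the myeloid lineage and those of retinal cells fell on opposite sides. Of 24 myeloid factors 20 were higher and none was lower in microglia, with a median log2 ratio of 5.14. Mef2c (chr13:83504034-83667080), a factor of neurons and microglia, stood at 1446, 1009.9 and 1299 CPM against 8.57 CPM, and Runx1, a factor of blood lineages, at 494, 489 and 554 CPM against 0.996 CPM. Spi1 itself stood at 211, 51.4 and 75.3 CPM against 0.569 CPM; the first library was the highest, and all 3 were above retina. Irf8, which acts with PU.1, stood at 331, 149.7 and 282 CPM against 2.78 CPM. Etv5 and Nr4a1 were not called, and Cebpb and Batf3 were under 5 CPM on both sides. Of 26 retinal factors 14 were lower and 1 was higher, with a median of -3.16. Crx stood at 74.5, 82.9 and 47.5 CPM in microglia and 1480.5 CPM in retina (chr7:15865947-15879968), 21.7-fold lower. Nrl, which directs rod fate, stood at 37.3, 46.3 and 11.3 CPM against 1098 CPM, and Nr2e3, which acts after it, at 23.5, 16.4 and 26.2 CPM against 1420.1 CPM. The 1 higher factor was Nfia, a nuclear factor of glia and late progenitors, with 166, 190.0 and 224 CPM against 27.9 CPM (6.92-fold, 6.45 to 7.43). Prdm1, which biases photoreceptor precursors and is also used in immune cells, lay within 2-fold, with 238, 179.9 and 278 CPM against 154 CPM.

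Complement components and receptors were mostly higher in microglia: 12 of 18 genes were called higher and 1 lower, with a median log2 ratio of 3.51. C1qb (chr4:136880129-136886187), a chain of the initiator C1q, stood at 1373, 711 and 1446 CPM against 7.19 CPM, 164-fold (143 to 189), and C1qc at 943, 778 and 1707 CPM against the same 7.19 CPM, 159-fold (139 to 183). C1qa, the third chain, varied far more. It stood at 240.0, 28.9 and 51.3 CPM against 8.25 CPM, a mean of 107 ± 116 (SD, n = 3), and replicate 2 was under 4-fold, so that it was not called. The C1qa transcript has a GC content of 59.5% and those of C1qb and C1qc 57.4% and 57.5%; its part in the difference was not tested. C3, the central component, stood at 24.6, 51.3 and 39.0 CPM against 1.67 CPM and its receptor C3ar1 at 2104, 1125 and 1452 CPM against 1.92 CPM, 812-fold (622 to 1081). Serping1, the inhibitor of C1 proteases, was the 1 gene on the retina side, with 0.162, 0.0849 and 0 CPM in microglia against 6.37 CPM. Masp1, a protease of the lectin pathway, was called with 38.3, 4.92 and 4.50 CPM against 0.640 CPM, and its mean rests on the first library.

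The receptors that carry or use immunoreceptor tyrosine activation motifs (ITAM) and the Fc receptors were nearly all higher, 20 of 22 with none lower and a median log2 ratio of 6.87. Tyrobp, the DAP12 adaptor, stood at 280.1, 227 and 395 CPM against 3.34 CPM, 89.9-fold (73.5 to 111), and its partner receptor Trem2 at 151, 130.3 and 176 CPM against 2.78 CPM, 54.9-fold (44.0 to 69.5). Fcer1g, the common Fc chain, stood at 629, 367 and 736 CPM against 0.854 CPM, and the sialic acid receptor Cd33 at 1151, 558 and 1014 CPM against 1.21 CPM. The 3 microglia libraries lay within 3-fold of each other for these genes, well inside their distance from retina. Fc receptor genes are a multigene family, and reads shared between their members leave single values uncertain. Pattern recognition genes were higher in 18 of 22 cases, with none lower and a median of 5.86. Tlr7, the endosomal receptor for single-stranded RNA, stood at 639, 321 and 579 CPM against 0.534 CPM, and Ly86, the partner of Cd180, at 1692, 656 and 1401 CPM against 2.70 CPM. Of the inflammasome genes, Nlrp3 stood at 108, 61.7 and 62.7 CPM against 3 retina counts and Casp1 at 77.3, 55.3 and 82.5 CPM against 1 count. Myd88, the adaptor of most Toll-like receptors, was not called, at 23.4, 11.9 and 20.5 CPM against 3.59 CPM.

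Genes for clearing dying cells fell on both sides. Of 21 genes, 11 were higher and 5 lower in microglia, with a median log2 ratio of 3.37. Over all 13556 genes 12.1% were higher and 18.2% lower, so the lower share lay near that of all genes. Of the TAM receptor tyrosine kinases, which bind phosphatidylserine on dying cells through Gas6 and protein S, Mertk (chr2:128698956-128802894) stood at 1355, 1054 and 1307 CPM in microglia and 5.66 CPM in retina, 219-fold (187 to 257). Axl (chr7:25757273-25788705) stood at 561, 316 and 422 CPM against 12.4 CPM, 34.9-fold (31.4 to 38.8). Tyro3 (chr2:119797733-119818104) had 0, 0.0849 and 0 CPM in microglia and 21.6 CPM in retina. The family thus split, with 2 members called on the microglia side and 1 on the retina side. Of the ligands, Pros1, protein S, stood at 461, 405 and 472 CPM against 14.3 CPM, 31.1-fold (28.2 to 34.4), while Gas6 stood at 162, 70.4 and 161 CPM against 54.5 CPM and was not called. Mfge8, a secreted bridge to integrins, stood at 7.95, 7.13 and 12.3 CPM against 162 CPM in retina, 17.8-fold lower. The engulfment receptor Megf10 stood at 7.05, 2.89 and 3.14 CPM against 68.1 CPM, and Gulp1, an adaptor of engulfment receptors, at 11.0, 7.81 and 12.2 CPM against 57.1 CPM. Adgrb1, the phosphatidylserine receptor BAI1, was the other lower gene, at 0.243, 1.70 and 0.273 CPM against 20.1 CPM; its transcript has 63.6% GC and its call was lost after centring by GC content. Lrp1, the large endocytic receptor, stood at 1678, 1163 and 1755 CPM against 145 CPM, and the endosomal glycoprotein gene Cd68 at 917, 527 and 817 CPM against 1.85 CPM.

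Lysosomal genes were higher in 17 of 24 cases and lower in none, with a median log2 ratio of 3.43. Grn, the progranulin precursor, stood at 2341, 1637 and 2826 CPM against 26.4 CPM, 85.9-fold (79.9 to 92.4). Psap, the saposin precursor, stood at 1481, 1442 and 2889.5 CPM against 445 CPM and was not called, since 2 libraries were under 4-fold. Ctsf was the lysosomal protease with the lowest ratio, at 98.7, 43.4 and 74.5 CPM against 186 CPM, with all 3 microglia libraries below retina. Of 26 genes named after disease-associated microglia in models of neurodegeneration, 23 were higher and none lower, with a median of 5.24. Spp1, the secreted phosphoprotein osteopontin (chr5:104435118-104441050), stood at 462, 180.2 and 415 CPM against 0.854 CPM, 413-fold (277 to 644). Igf1 (chr10:87858265-87937042), the growth factor, stood at 806, 321 and 684 CPM against 20.7 CPM, 29.2-fold (26.9 to 31.7). Apoe (chr7:19696109-19699188), the lipid carrier, stood at 2214, 1339 and 2609 CPM against 250.5 CPM, 8.20-fold (8.01 to 8.4), so that the gene was abundant on both sides. Itgax, which encodes CD11c, stood at 269, 141 and 229.7 CPM against 0.498 CPM, and Clec7a, the beta-glucan receptor Dectin-1, at 319, 86.0 and 141 CPM against 1.17 CPM. Fabp5, a fatty acid binding protein gene of the same list, did not follow, with 50.3, 59.4 and 42.1 CPM against 86.4 CPM.

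**Figure D2:**
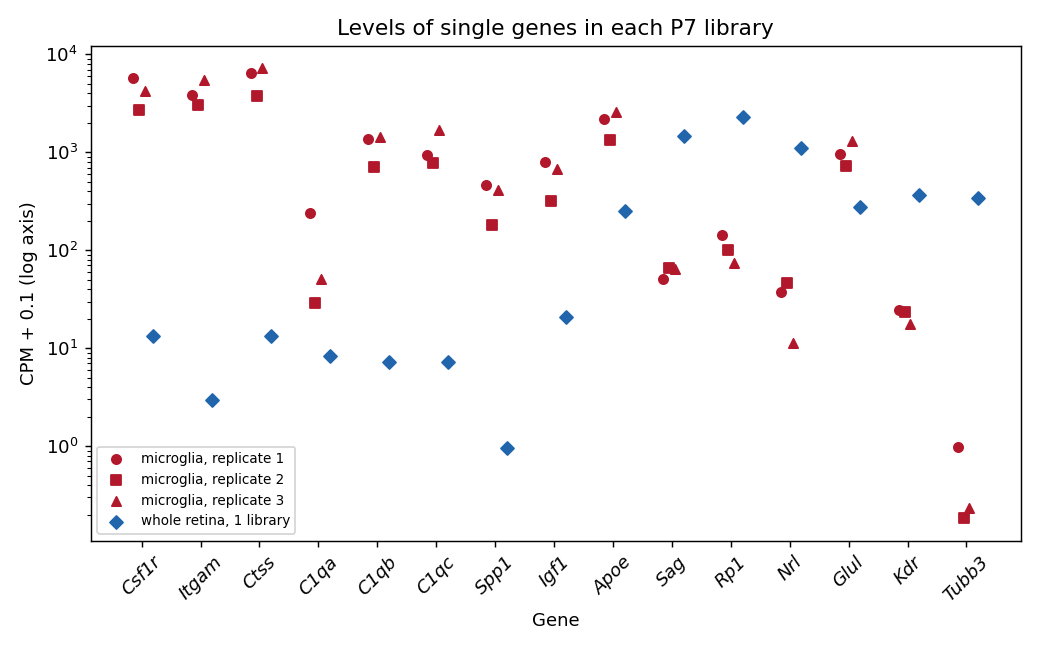
CPM of 15 genes (0.1 CPM added, log axis) in each of the 3 P7 microglia libraries (red, a symbol for each replicate) and the single P7 whole retina library (blue). Microglia genes lie above the retina value in every library, photoreceptor genes such as Rp1 and Nrl below it, and C1qa spreads from 28.9 to 240.0 CPM.

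Chemokine and cytokine genes were higher in 15 of 28 cases and lower in 4, with a median log2 ratio of 5.08, and 9 of the 28 had no count in retina. Tnf stood at 52.3, 55.0 and 60.4 CPM with no retina count, at least 524-fold higher against 3 counts. Ccl2, which attracts monocytes, stood at 83.1, 57.1 and 34.3 CPM and Ccl4, a related chemokine, at 50.3, 28.7 and 40.8 CPM, also with no retina count (at least 545-fold and 374-fold). Il1a stood at 309, 250.3 and 371 CPM against 0.783 CPM, and Il1b at 22.1, 14.3 and 11.3 CPM with no retina count. The labels' protocol has the cells enzymatically dissociated and sorted before lysis and the retinas placed in lysis buffer after dissection; the part of these steps in the cytokine values was not tested. On the retina side were Cx3cl1, Tgfb2, Tgfb3 and Cxcl14. Antigen presentation genes were higher in 10 of 17 cases, with a median of 3.89. The class I gene H2-K1 stood at 435, 459.5 and 464 CPM against 4.27 CPM, and the invariant chain Cd74 at 38.5, 51.4 and 33.2 CPM against 0.427 CPM. The class II gene H2-Aa was at 0.162, 0 and 0 CPM with no retina count, so neither side can be compared. H2 genes are near-identical copies and reads may be split among them. Interferon response genes were called in 4 of 18 cases, 9 of the 18 reaching 5 CPM: Oasl2, Mx1, Ifit1 and Bst2, of which Oasl2 was highest at 40.7, 13.7 and 22.5 CPM against 1.74 CPM.

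Of 18 genes for receptors, enzymes and transporters of extracellular nucleotides, 8 were higher and 1 was lower in microglia, with a median log2 ratio of 2.27. Entpd1, the CD39 enzyme that removes phosphates from ATP and ADP (chr19:40612366-40741602), stood at 795, 419 and 615 CPM in microglia against 2.88 CPM, 211-fold (170.1 to 266). Nt5e, the CD73 enzyme that makes adenosine from the AMP so formed (chr9:88327197-88372092), stood at 12.6, 21.7 and 4.91 CPM against 187 CPM in retina, 14.3-fold lower. These 2 enzymes were thus called on opposite sides. The purine receptors P2ry13, at 974, 509.9 and 885 CPM against 1.71 CPM, and P2ry6, at 160.2, 90.8 and 223 CPM against 0.391 CPM, lay on the microglia side, as did P2rx7 at 169.9, 144 and 238 CPM against 0.498 CPM. Of 16 channel and transporter genes known from microglia 12 were higher and none lower, with a median of 5.29. The proton channel Hvcn1 stood at 216, 87.4 and 188 CPM against 0.356 CPM, and the fructose transporter Slc2a5 at 38.7, 26.4 and 35.8 CPM against 0.391 CPM.

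Genes of cholesterol and lipid handling fell on both sides, with 9 of 26 higher and 5 lower and a median log2 ratio of -0.58 that turned to 0.25 after GC centring. Over all 13556 genes 12.1% were higher and 18.2% lower, so the lower share lay near that of all genes. Among the 9 higher genes, Abca1, the cholesterol exporter (chr4:53030787-53159895), stood at 3037, 2614 and 3694 CPM against 175 CPM, 17.8-fold (17.3 to 18.3), and Lpl, lipoprotein lipase, at 1005, 511 and 1053 CPM against 23.2 CPM, 37.0-fold (34.2 to 40.0). Plin2, which coats lipid droplets, stood at 246, 134 and 160.3 CPM against 20.7 CPM, and Soat1, which esterifies cholesterol, at 369, 186 and 326 CPM against 23.4 CPM. Among the 5 lower genes, Hmgcs1, an early enzyme of sterol synthesis, stood at 46.1, 32.5 and 27.8 CPM against 202 CPM. Fasn, fatty acid synthase, stood at 53.5, 52.3 and 46.7 CPM against 340.4 CPM, Srebf1 at 21.2, 8.57 and 16.2 CPM against 172 CPM and Srebf2, the regulator of sterol genes, at 17.3, 9.0 and 17.0 CPM against 73.0 CPM. The calls of Fasn, Srebf1 and Srebf2 were lost after GC centring, and their transcripts have 57.9%, 58.4% and 57.9% GC. Scd2, a desaturase, lay within 2-fold, at 732, 588 and 1017 CPM against 611 CPM.

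Of 30 cell cycle genes, none was called in either direction, and 8 lay within 2-fold in all libraries; their median log2 ratio was -0.36, beside -0.33 for all genes in the table. Top2a, which untangles replicated DNA, stood at 118, 96.8 and 82.2 CPM in microglia and 125 CPM in retina. Mki67, the marker of dividing cells, stood at 213, 287 and 301 CPM against 99.8 CPM, and Pcna, the polymerase clamp, at 214, 194 and 215 CPM against 72.1 CPM, both above retina in all 3 libraries by less than 4-fold. Transcripts of dividing cells were thus present on both sides. Of 16 housekeeping genes 5 lay within 2-fold, 3 were higher and none lower, with a median of 0.04 that was -0.29 with CPM by total counts. Actb stood at 2925, 2005 and 3420.0 CPM against 1989 CPM and Gapdh at 1484, 732 and 1459 CPM against 1036 CPM. The 3 called were Gusb, a lysosomal enzyme, Polr2a and Ywhaz; Ywhaz was 5.76-fold higher by counts (2026, 1987 and 3008 CPM against 407 CPM) and lower by deposited FPKM, 937 ± 202 (SD, n = 3) against 1639, so its direction depends on the length used.

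**Figure D3:**
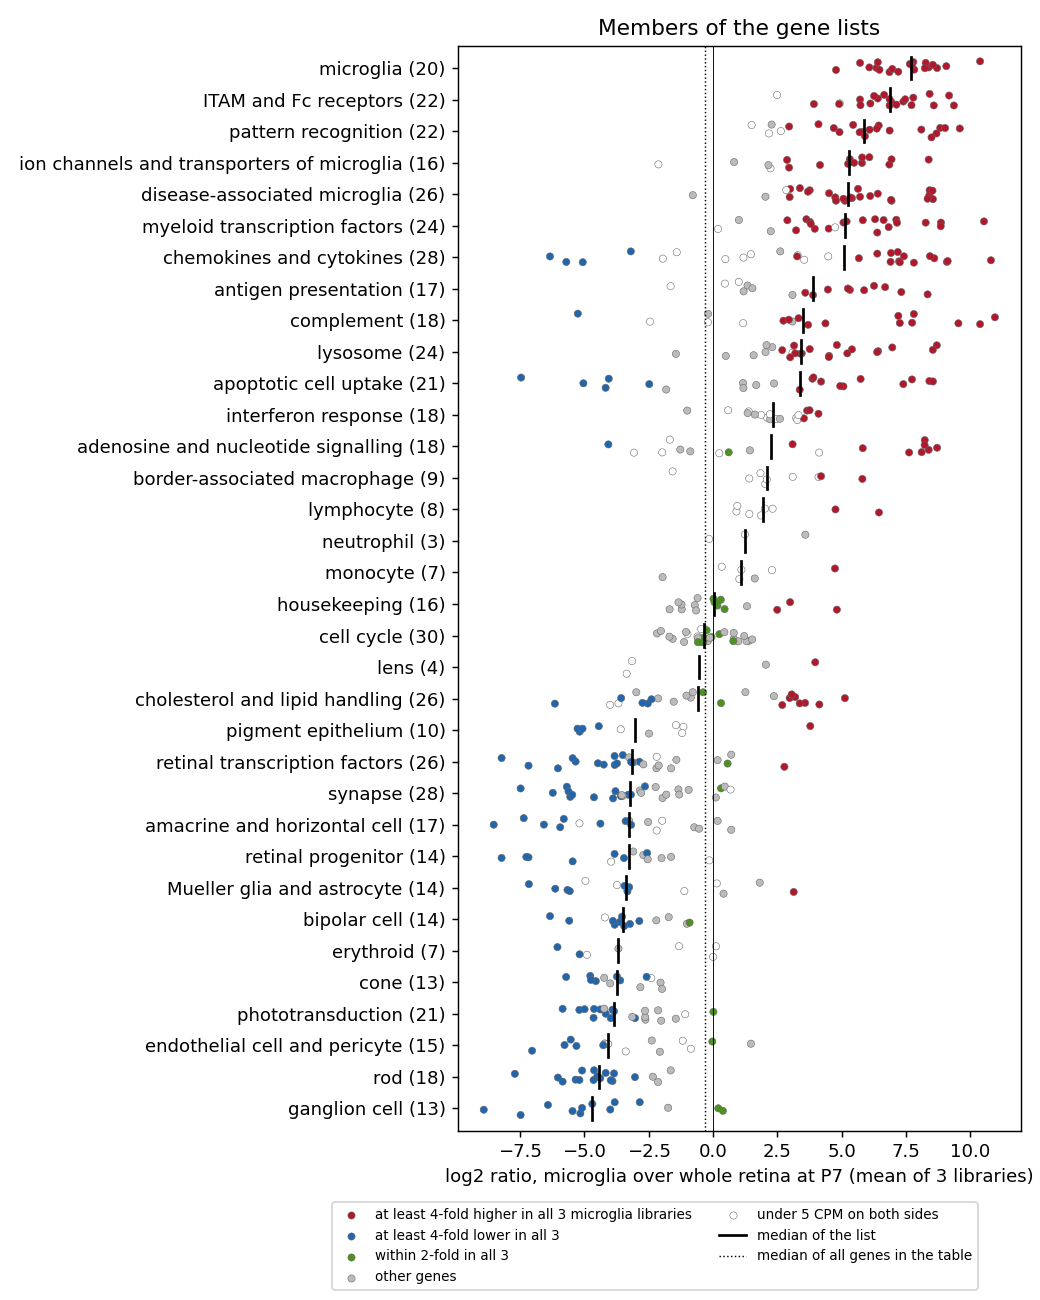
Log2 ratio of microglia over whole retina at P7 (mean of 3 libraries, 0.1 CPM added) for each member of 34 gene lists, with the number of members in the table after each name. Black bars are list medians, from 7.69 for the microglia list to -4.69 for ganglion cell markers, and the dotted line is the median of all genes, -0.33.

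Rod transcripts were lower in microglia in all 3 libraries for most of the list. Of 18 rod genes 15 were lower and none higher, with a median log2 ratio of -4.44. Rp1, a protein of the outer segment axoneme, stood at 142, 100.2 and 74.9 CPM in microglia and 2314 CPM in retina, and Sag, rod arrestin, at 50.4, 66.0 and 64.1 CPM against 1477 CPM, 24.5-fold lower. Both lay far below retina in all 3 libraries, yet neither was at 0. Of the genes whose promoters are printed above, Cnga1, a subunit of the light-regulated channel, stood at 9.97, 5.94 and 6.28 CPM against 109.6 CPM, and Gngt1, the gamma subunit of transducin, at 10.6, 10.9 and 14.7 CPM against 251 CPM. Rom1, a disc rim protein, had the lowest ratio of the list, with 7.78, 0.679 and 4.98 CPM against 657 CPM. Samd7, which represses cone genes in rods, was not called, with 30.2, 71.4 and 49.5 CPM against 241 CPM, nor were Gnat1 and Reep6. Of 21 phototransduction genes, 11 were lower and none higher, with a median of -3.85; this list shares 11 members with the rod list. Of 13 cone genes 7 were lower, among them Opn1sw, the short-wavelength opsin, at 7.95, 16.6 and 10.9 CPM against 139 CPM.

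Genes of other neurons and of progenitors were lower as well, to unequal degrees. Ganglion cell genes were lower in 10 of 13 cases (median log2 ratio -4.69), amacrine and horizontal cell genes in 8 of 17 (-3.26), bipolar cell genes in 9 of 14 (-3.50) and progenitor genes in 7 of 14 (-3.28). Sncg, a synuclein of ganglion cells, had no count in any microglia library and 48.2 CPM in retina, at least 623-fold lower against 3 counts over the 3 libraries. Slc17a6, the vesicular glutamate transporter of ganglion cells, stood at 0.243, 0.255 and 0.137 CPM against 54.7 CPM. Calb2, calretinin of amacrine cells, stood at 0.0811, 1.78 and 0 CPM against 119.7 CPM, and Sox2, a progenitor and glial factor, at 0, 0 and 0.205 CPM against 43.2 CPM. All 4 were under 1% of the retina level in microglia. Synapse genes were lower in 14 of 28 cases and higher in none (median -3.24). Syp, synaptophysin, stood at 58.5, 46.2 and 45.2 CPM against 590.1 CPM, and Cplx3, complexin of ribbon synapses, at 3.49, 3.23 and 4.78 CPM against 172 CPM. Vamp2, a vesicle fusion protein used beyond neurons, lay within 2-fold, at 53.1 ± 8.72 CPM (SD, n = 3) against 42.3 CPM.

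The largest differences on the retina side included several neuronal genes. Ccnb1ip1 (chr14:50789248-50807732), a ubiquitin ligase named for its binding to cyclin B1, stood at 0.162, 1.10 and 0.205 CPM in microglia and 2842 CPM in retina, the lowest ratio among the named genes, 5799-fold lower. Tubb3, the neuronal beta-tubulin (chr8:123411424-123422015), stood at 0.892, 0.0849 and 0.137 CPM against 343 CPM, and Uchl1, a neuronal deubiquitinase, at 0.162, 0.340 and 0 CPM against 114 CPM. Both were near 0 in each microglia library. Npy, neuropeptide Y, had no count in microglia and 55.7 CPM in retina, at least 720.0-fold lower against 3 counts over the 3 libraries. Tuba1a, an alpha-tubulin of growing neurons and other cells, was among the 10 named lower genes with the highest retina FPKM, at 72.6, 96.3 and 116 CPM against 3082 CPM. The highest retina FPKM also named Tma7-ps, a pseudogene, and Snurf, which overlaps Snrpn, and the largest ratios named the pseudogenes Eif4a-ps4 and Pgam1-ps2. Pseudogenes share reads with their parent genes, and the values of these 4 are uncertain. Ccnb1ip1 had a retina FPKM of 12237, and which transcript at its locus gave these counts was not tested.

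Retinal transcripts were measured in the sorted cells at a level that varied with the gene. Over 78 markers of rods, cones, progenitors, ganglion, amacrine, horizontal and bipolar cells and Müller glia with at least 10 CPM in retina, the median level in microglia was 6.63%, 7.26% and 5.79% of retina, 6.56% ± 0.739 (SD, n = 3). Replicate 2 had the highest of these percentages. By list it was highest only for cones (6.19%, 16.4% and 7.83%) and progenitors (5.25%, 12.1% and 6.93%). Rods stood at 6.03%, 4.40% and 4.33% in the 3 libraries. The middle 50% of markers lay between 3.11% and 16.8%, 9 were under 1% and 4 were over 100%. By list the level was 4.92% ± 0.96 for rods, 5.43% ± 1.06 for ganglion cells, 6.72% ± 3.39 for amacrine and horizontal cells, 8.09% ± 3.56 for progenitors, 8.44% ± 1.83 for Müller glia and astrocytes, 9.25% ± 2.65 for bipolar cells and 10.1% ± 5.49 for cones (SD, n = 3). The 4 genes above the retina level were Glul, glutamine synthetase of Müller glia and macrophages, at 965, 719 and 1310.1 CPM against 275 CPM; Prox1, a factor of horizontal and amacrine cells, at 170.4, 185 and 248 CPM against 122 CPM; Ebf3, at 66.6, 73.0 and 68.8 CPM against 53.2 CPM; and Rbpms, at 27.4, 12.6 and 39.0 CPM against 20.6 CPM. For Glul, Prox1 and Ebf3 all 3 microglia libraries were above retina. Kcnj10, the potassium channel of Müller glia, had under 10 CPM in retina and was called higher, at 25.9, 25.1 and 47.8 CPM against 3.49 CPM. How much retinal RNA the sorted cells carried was not tested.

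Markers of further cell types were mostly under 5 CPM or not called, with exceptions. Of 9 border-associated macrophage genes 2 were higher, the mannose receptor Mrc1 at 21.2, 18.6 and 25.2 CPM against 0.285 CPM and the scavenger receptor Stab1 at 354, 238 and 267 CPM against 15.2 CPM, and the other 7 were under 5 CPM on both sides. Of 7 monocyte genes 1 was higher: Ccr2, whose protein was gated against, at 20.2, 9.68 and 4.03 CPM against 0.249 CPM. Fn1, fibronectin, which other cells make too, was the most abundant of that list and was not called, at 173, 150.5 and 205 CPM against 56.6 CPM. None of 3 neutrophil genes was called, and Mpo was the only one to reach 5 CPM in microglia. Of 8 lymphocyte genes, Cd79b at 12.0, 7.30 and 7.44 CPM with no retina count and Il7r at 25.0, 5.35 and 31.3 CPM against 0.498 CPM were higher, and Cd3e, Cd3d, Cd3g, Cd79a and Ms4a1 were all under 5 CPM. Of 15 endothelial and pericyte genes 6 were lower and none higher. Cldn5, the tight junction protein of vessels, had no count in microglia and 13 CPM in retina, and Kdr, the VEGF receptor 2, stood at 24.3, 23.5 and 17.5 CPM against 369 CPM. Of 7 erythroid genes the globins Hbb-bs, at 3.32, 0 and 0.137 CPM against 28.6 CPM, and Hba-a2 were lower; globin copies share reads. Of 10 pigment epithelium genes 4 were lower and 1 was higher, Best1, a chloride channel, at 9.16, 21.4 and 12.6 CPM against 0.890 CPM. Of 4 lens genes in the table, Crybb1 was higher, at 21.2, 8.06 and 13.5 CPM against 0.747 CPM. Microglia also held 20.1 ± 10.7 CPM of Crybb1 at e16.5 and 7.00 ± 5.97 CPM at P60 (SD, n = 3 each). Retina had 0.213 ± 0.0343 CPM at e16.5 (SD, n = 3) and 0.382 CPM at P60. Which cells these counts come from was not tested.

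Signals between the tissue and its microglia were read from 55 ligand and receptor pairs. The ligand was called on the retina side and the receptor on the microglia side in 5 pairs. Cx3cl1, fractalkine (chr8:94772009-94782427), stood at 0.0811, 0.0849 and 0.205 CPM in microglia and 17.5 CPM in retina, opposite to its receptor Cx3cr1. Cd200, an inhibitory surface ligand of neurons, stood at 1.70, 4.41 and 0.751 CPM against 45.4 CPM. Its receptor Cd200r1 stood at 22.3, 1.36 and 0.751 CPM with no retina count, so that its mean rests on the first library. Tgfb2 stood at 16.5, 8.4 and 8.67 CPM against 98.3 CPM and Tgfb3 at 0.0811, 0 and 3.21 CPM against 20.3 CPM, while their receptor Tgfbr2 stood at 778, 513 and 849.8 CPM against 4.16 CPM, 171-fold (143 to 207). The third form, Tgfb1, lay on the microglia side, at 94.5, 112 and 112 CPM against 0.783 CPM, 136-fold (89.5 to 216). The 3 TGF-beta ligands thus divided, with Tgfb1 on the microglia side and Tgfb2 and Tgfb3 on the retina side. Mif and Cd74 were the fifth pair; Mif stood at 9.97, 9.93 and 21 CPM against 133 CPM, its transcript has 63.5% GC and its call was lost after GC centring.

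In 16 pairs both genes were on the microglia side. Csf1 stood at 304, 115 and 262 CPM in microglia and 4.09 CPM in retina, 55.4-fold (46.2 to 67.1), the same side as its receptor Csf1r. Il34, the other ligand of that receptor, was under 5 CPM on both sides, at 0.0811, 0.424 and 0 CPM against 0.463 CPM. Cd47, the signal that restrains engulfment, stood at 277, 259.6 and 317 CPM against 25.6 CPM and its receptor Sirpa at 2083, 1536 and 2454 CPM against 161 CPM. In 2 pairs the ligand lay on the microglia side and the receptor on the retina side: Pros1 with Tyro3, and Sema4d with Plxnb1. Sema4d, a semaphorin of immune cells, stood at 413, 214 and 366 CPM against 17.8 CPM and Plxnb1, its plexin receptor, at 12.9, 23.9 and 19.1 CPM against 159 CPM. In 2 more, the microglial ligand met a receptor within 2-fold: Igf1 with Igf1r (106, 178 and 169.9 CPM against 198 CPM) and Grn with Sort1 (265, 215 and 287 CPM against 229.6 CPM). Vegfa with Kdr was the 1 pair with both on the retina side, Vegfa at 24.5, 22.1 and 27.3 CPM against 122 CPM. RNA of a ligand and a receptor on opposite sides says nothing of whether the proteins meet.

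**Figure D4:**
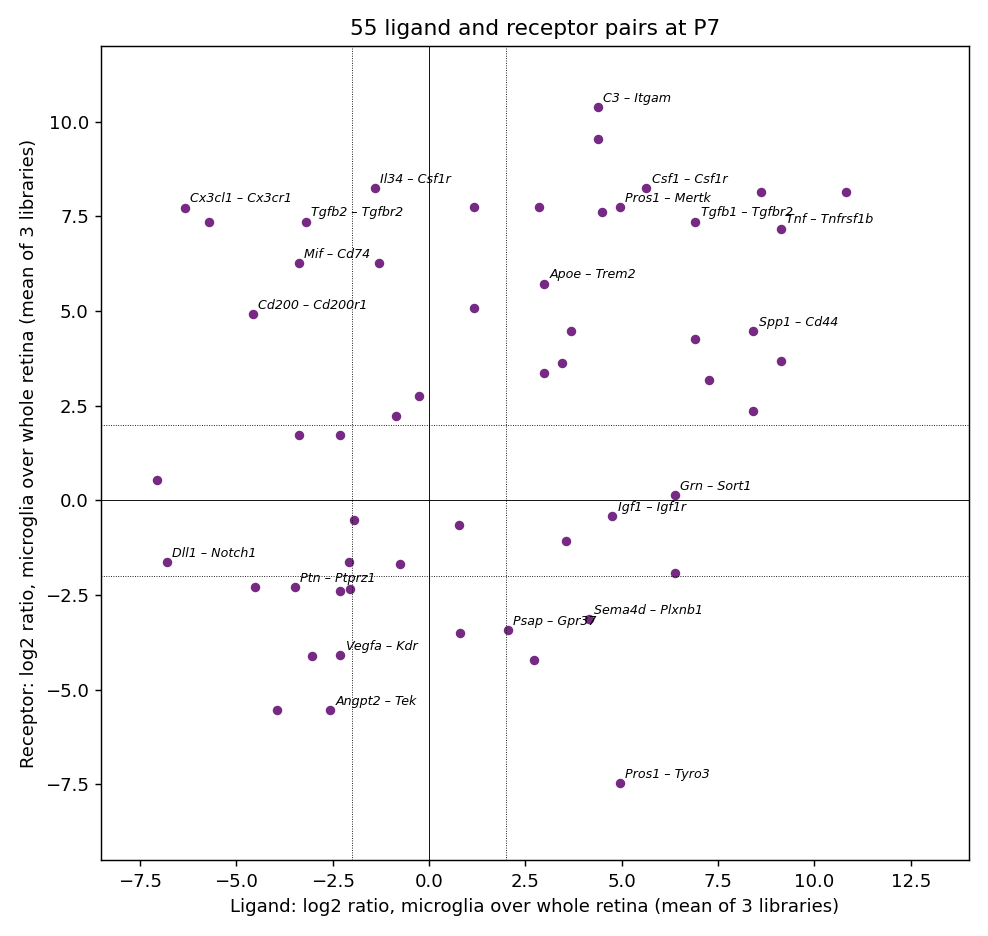
Each point is 1 of 55 ligand and receptor pairs, with the log2 ratio of microglia over whole retina at P7 (mean of 3 libraries, 0.1 CPM added) of the ligand on the x axis and of the receptor on the y axis; dotted lines mark 4-fold. Cx3cl1 with Cx3cr1 and Tgfb2 with Tgfbr2 lie upper left, Csf1 with Csf1r upper right and Pros1 with Tyro3 lower right.

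Some genes higher in microglia differed widely among the 3 libraries. Among those with a mean of at least 50 CPM in microglia, the 5 named with the largest range on the log2 scale were Saa3, Lars2, Gbp9, Marf1 and Polg2. Saa3, an acute phase apolipoprotein, stood at 80.8, 443 and 119 CPM against 3.91 CPM in retina. Lars2, the mitochondrial leucyl-tRNA synthetase, stood at 9536, 1368 and 2685 CPM against 261 CPM, a mean of 4529.6 ± 4385 (SD, n = 3). Whole retina varied widely for Lars2 too, at 1335 ± 2123 CPM at e16.5 (SD, n = 3) and 49.6 CPM at P60. Its ratio to the single P7 retina library is therefore uncertain. Marf1, a regulator of oocyte meiosis with RNA-binding domains, stood at 730.1, 2434 and 3141 CPM against 85.1 CPM, so that the library highest for Lars2 was the lowest for Marf1. Gbp9, of a multigene family whose reads may be split, stood at 85.7, 48.1 and 19.0 CPM against 0.854 CPM, and Polg2, a subunit of the mitochondrial DNA polymerase, at 74.8, 309 and 142 CPM against 13.1 CPM. All values in microglia were above retina, which the rule for a higher call requires.

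The ratio of microglia to retina also moved with the base composition of the transcript. Over 10 equal groups of genes ordered by GC content, the median log2 ratio was 0.37 in the lowest (31.0% to 40.8% GC) and -2.49 in the highest (57.7% to 72.8% GC). In the highest group 43.7% of genes were called lower and 6.88% higher, against 8.36% and 14.1% in the lowest. The 3 microglia libraries followed the same course, with medians of -2.37, -2.42 and -2.25 in the highest group. Median GC was 48.3% for the higher, 53.0% for the lower and 46.9% for the near genes, beside 49.2% for all. GC centring removed the differences between the medians of the GC groups and kept the overall median, which was -0.60 afterwards. After it, 1645 genes were higher and 2168 lower. Of the genes with a GC value, 1422 of 1626 higher and 1885 of 2461 lower genes kept their call. Among the named genes, Gpx4, a selenoprotein that protects lipids from oxidation (10.3, 5.01 and 4.10 CPM against 146 CPM, 60.2% GC), Klc1, Ptov1, Lhx2, Egfl7 and Cxcl14 also lost the lower call. Ifit1, Il1r1 and Ywhaz lost the higher call. The source of this relation was not tested.

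**Figure D5:**
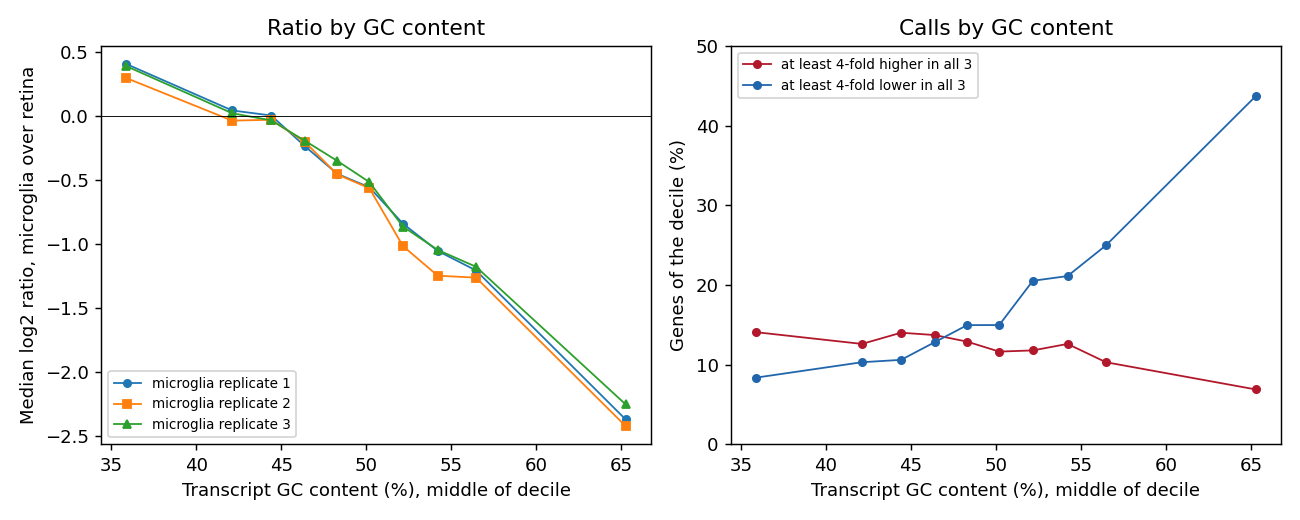
Left, median log2 ratio of microglia over whole retina at P7 in 10 equal groups of genes ordered by transcript GC content, 1 line for each microglia library; right, percent of genes called higher (red) or lower (blue) in each group. Ratios fall as GC rises in all 3 libraries, and the share called lower reaches 43.7% in the highest group.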

How the data were processed

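RNA sequencing of 14 libraries was deposited as 1 table. The counts deposited by the authors are whole numbers. The submitters' processing notes name Salmon 0.9.1, a tool that estimates abundance, so these deposited values were handled as estimated counts and rounded. The FPKM values deposited by the authors divide by a gene length that can differ between libraries. Columns of adjusted p-values deposited by the authors, and of log2 ratios deposited by the authors, served only to count calls. DESeq2 1.20.0 and GRCm38.p6 also appear in those notes, with no role stated.

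TMM factors were computed over all 14 libraries with edgeR 4.0.16 in R 4.3.3. Genes needed a mean of 5 CPM in microglia or 5 CPM in retina on the side called, or both for genes within 2-fold. A pseudocount of 0.1 CPM was added. No test was run, because the retina has 1 library. Totals per library set the counting precision; intervals (95%) and the limit of 3 counts for a gene with no count cover counting error only. Groups come from the labels. The calling code was also run on counts simulated from the retina profile with planted folds. Their spread was set in advance and not taken from the microglia libraries, so that run does not show how calls behave in these data. Gene positions, transcript GC and length were taken from GENCODE M21 (GRCm38), which held 20775 of the 20902 genes.

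The members, 34 gene lists and 55 pairs were chosen with earlier results of these data known, so counts over them support nothing beyond description. Named among called genes (unnamed genes, clones, ribosomal protein, mitochondrial and histone genes left out) were the 10 highest by FPKM and the 10 largest ratios on each side (the ratios with at least 50 CPM), up to 4 members of each list per direction or the 2 most abundant, all pair members, and the 5 higher genes of widest range with at least 50 CPM. Results for some genes are not reported here. Other list members named were chosen after their values were seen. Alternatives were CPM by total counts, DESeq2 1.42.0 size factors, TMM over the 4 P7 libraries, deposited FPKM, a pseudocount of 1 CPM, other level minimums, folds of 2 and 8, leaving out each microglia library and, added after seeing the data, GC centring.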

Additional observations from a re-analysis of the deposited data

Results flagged for a closer look

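For 4 named genes, all microglia libraries lay at least 2-fold to one side of retina at P7 and at least 2-fold to the other side at another age, with 5 CPM or more on either side at both ages. Genes that crossed by less in any library are not counted. These differences between ages were not tested, and retina has 1 library at P7 and at P60. Apoe stood above retina at P7, with a log2 ratio of 2.98, and below it at P60, at -1.76; microglia had 2054 ± 650.0 CPM at P7 and 127 ± 27.4 CPM at P60 (SD, n = 3), and retina 250.5 and 425 CPM. Notch1, the receptor of Dll1 and Jag1, stood below retina at P7, at -1.63, and above it at P60, at 1.46, with 55.0 ± 8.94 and 81.4 ± 9.75 CPM in microglia (SD, n = 3) and 169 and 29.4 CPM in retina.

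The photoreceptor genes Sag and Pde6h stood below retina at P7, at -4.63 and -2.58, and above it at e16.5, at 3.31 and 1.93. At e16.5, when whole retina held 1.48 ± 0.474 CPM of Sag and 1.47 ± 0.251 CPM of Pde6h, microglia had 15.9 ± 4.22 and 5.94 ± 1.08 CPM (SD, n = 3 each). At P7 Pde6h stood at 8.60 CPM in microglia and 50.3 CPM in retina. Its deposited FPKM at P7 were 1.52 ± 0.449 (SD, n = 3) and 978, so the size of its ratio depends on the length used.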

How the results depend on the processing

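The P7 counts depended mainly on the fold demanded. At 2-fold 2704 genes were higher and 4334 lower in microglia, and at 8-fold 1026 and 1356, beside 1637 and 2468. With CPM by total counts the retinal marker level fell to 5.30% from 6.56%, while the calls, 1407 higher and 2973 lower, stayed within 1.5 times. Leaving out 1 microglia library gave 1748 to 1872 higher, 2821 to 2988 lower and 2780 to 3151 genes within 2-fold, and a marker level of 6.21% to 6.95%. No other alternative moved these 3 counts by over 1.5 times or the marker level by over its SD. Among the called named genes, Ywhaz alone changed direction, to -0.83 with deposited FPKM. Of 34 list medians, 3 changed sign under some setting: housekeeping (0.04; -0.29 with CPM by total counts, -0.19 with deposited FPKM, -0.03 after GC centring and as low as -0.10 without 1 library), lens (-0.55; 0.29 with a pseudocount of 1 CPM, 0.08 after GC centring) and cholesterol and lipid handling (-0.58; 0.25 after GC centring). The cause was not tested. No paired analysis was possible because the results come from no test and the retina side has 1 library. At the depth of the retina library, a gene with no count lies under 0.107 CPM.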

Other observations

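Several genes on the microglia side at P7 stood lower in the microglia libraries of the other ages, given here as values without a test. Spp1 stood at 23.5 ± 18.9 CPM at e16.5, 352 ± 151 CPM at P7 and 8.43 ± 2.33 CPM at P60 (SD, n = 3 each). Igf1 stood at 40.6 ± 15, 603 ± 252 and 14.6 ± 3.81 CPM, Csf1 at 51.4 ± 16.7, 227 ± 99.0 and 20.6 ± 5.09 CPM, and Abca1 at 822 ± 148, 3115 ± 544 and 242 ± 104 CPM. The retina library of P7 held 0.854, 20.7, 4.09 and 175 CPM of these 4 genes. Of the identity list, Ptprc stood at 989 ± 223, 923 ± 129 and 996 ± 276 CPM and P2ry12 at 2151 ± 419, 1736 ± 528 and 1540.4 ± 642 CPM, while Sparc stood at 3559 ± 884, 5702 ± 2038 and 1620.1 ± 298 CPM (SD, n = 3 each). Ccnb1ip1, with the lowest ratio named at P7, was near 0 in microglia at the other ages too, at 0.321 ± 0.328 CPM at e16.5 and 3.11 ± 2.11 CPM at P60, against 6713 ± 442 CPM in the 3 retina libraries of e16.5 (SD, n = 3).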
